A study of Dicentrarchus labrax with 10 samples.

Results

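The sex differentiation genes amh (anti-Müllerian hormone), dmrt1 (a transcription factor with a DM domain) and cyp19a1b (brain-type aromatase) were followed fish by fish in the gonads of European sea bass. They were found by probe ID: 4 of the 11705 sequences on the array, read by 12 of its 24200 probes. The study's probe annotation names 2 sequences amh, here called the first (probes CUST_20077_PI416070213, CUST_20078_PI416070213 and CUST_20079_PI416070213) and the second (CUST_1012_PI416070213, CUST_1013_PI416070213 and CUST_1014_PI416070213). It names 1 sequence dmrt1 (CUST_10630_PI416070213, CUST_10631_PI416070213 and CUST_10632_PI416070213) and 1 sequence aromatase B, which is cyp19a1b (CUST_535_PI416070213, CUST_536_PI416070213 and CUST_537_PI416070213). All fish were kept at 17 °C as larvae until 20 days after hatching. The 5 fish of the HT group were then held at 21 °C until 60 days post hatch (dph), and the 5 fish of the LT group at 15 °C over the same days, after which their water was also warmed to 21 °C. At 170 dph gonad tissue was dissected from each fish, and its RNA, labelled with a single dye, was hybridised to 1 Agilent array per fish. The fish are labelled as putative females, and the study chose them among the fish with high expression of gonadal aromatase (cyp19a1a) at this age, so the groups hold selected juveniles and not a random sample of each tank. The cyp19a1a gene itself was not analysed here.

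In vertebrate gonads the supporting somatic cells and the germ cells pass through a male or a female programme. Amh is a secreted growth factor of the transforming growth factor beta family that Sertoli cells of the testis make in large amounts, and granulosa cells of the ovary make less of it. Dmrt1 is a transcription factor of the male programme, and in fish it is expressed mainly in the testis. Aromatases convert androgens into oestrogens, and fish carry a gonadal form, cyp19a1a, and a form named for the brain, cyp19a1b.

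Values are given as log2 intensities after background correction, with an offset of 50 added before the logarithm, and quantile normalization. A difference of 1 is a doubling of this offset intensity. For dim probes the offset makes differences, folds and ranges smaller than those of the signal without it. Each probe was printed as 2 spots, whose mean was used, and levels were compared between fish only within a probe. Fish are named by group and replicate number (HT1 to HT5, LT1 to LT5). The study left out 1 HT fish that a principal component analysis had classed as an outlier. This fish is taken here to be HT1, so group differences are given first for 9 fish and then for all 10. The values over 9 fish thus depend on a removal that was based on the data. Median foreground intensities of the arrays were 95 to 234.5 in the HT group and 130 to 219.5 in the LT group over background medians of 18 to 21. Each slide carried 1 HT and 1 LT array at fixed positions and each group came from 1 tank, so slide position, tank and temperature cannot be told apart. The p-values therefore measure the spread between fish of 2 tanks. Each of the 12 probes met the study's definition of reliable in all 10 fish, but the scanner software's stricter test of a spot well above background was not always met, as given below.

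The first amh sequence lay at 2 separate levels among the fish, and these levels cut across the temperature groups. Its brightest probe, CUST_20078, read 7.25, 13.59, 13.19, 12.27 and 13.07 in HT1 to HT5, against 9.32, 13.39, 7.93, 8.27 and 8.36 in LT1 to LT5. HT2 to HT5 and LT2 were high, HT1 and the other 4 LT fish were low, and the groups overlapped. In gonad tissue of mixed cells, more RNA per cell and more cells of the type that makes it cannot be told apart. Before normalization the mean of its 2 spots was 117.25 units in HT1 and 2815.5 to 17498.75 units in HT2 to HT5, against 234.5 to 808.25 units in LT1, LT3, LT4 and LT5 and 19048.35 units in LT2. The gap between the lowest high fish (HT4) and the highest low fish (LT1) was 2.95, larger than the range of the 5 low fish (2.07) or of the 5 high fish (1.32). The same 5 fish stood above the largest gap under each of the 7 ways of obtaining the values that were tried, and in 6 of them the gap exceeded both ranges. These 7 count the main way and the keeping of flagged spots, which left the values unchanged, and all use the same arrays.

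Over 9 fish, CUST_20078 averaged 13.0 ± 0.55 in the HT group and 9.45 ± 2.26 in the LT group (SD, n = 4 and 5). The difference of 3.58 ± 1.02 (standard error; 95% interval 1.28 to 5.88), an 11.9-fold change, did not pass the threshold in limma (adjusted p = 0.166, unadjusted p = 0.00638). The two-sided exact permutation test of this probe gave p = 0.0397, where 0.00794 is the smallest value that 4 against 5 fish allow. With HT1 included the HT mean was 11.9 ± 2.63 (n = 5), the difference fell to 2.42 ± 1.40, a 5.36-fold change (interval -0.70 to 5.54), and the p-values were 0.775 adjusted in limma and 0.198 in the exact permutation test. The value also turned on LT2. Without that fish the difference over the remaining 8 fish was 4.56 and limma's adjusted p was 0.000635, while with HT1 kept and LT2 left out it was 3.40 with an adjusted p of 0.575.

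**Figure D1:**
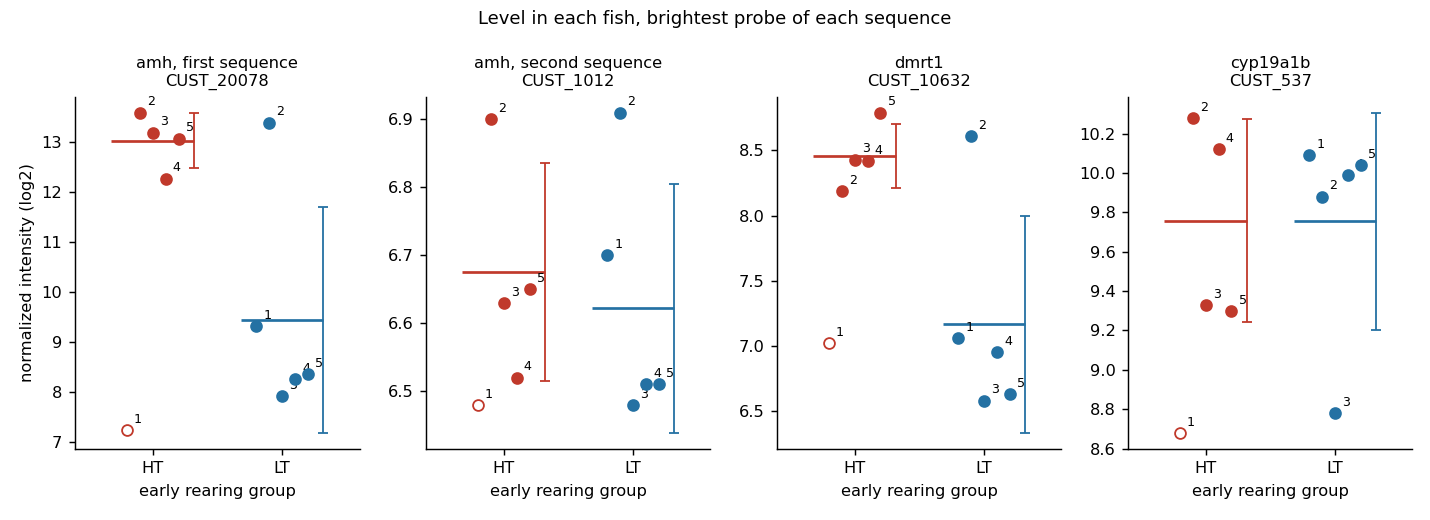
Normalized log2 intensity (vertical axis, a separate scale for each panel) of the brightest probe of each of the 4 sequences in the HT and LT fish, each point labelled with its replicate number. Lines and bars are the mean and SD of HT2 to HT5 and of the 5 LT fish, the open point is HT1, and for the first amh sequence and dmrt1 LT2 lies among the HT fish and HT1 lies with the 4 low LT fish or below them.

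The 3 probes of the first amh sequence ordered the fish alike. HT2, HT3, HT4, HT5 and LT2 were the 5 highest fish in each of them, and HT1 was the lowest. Over the 10 fish CUST_20078 spanned an 81.3-fold range and CUST_20079 ranged from 6.91 to 12.71 (55.9-fold). These folds include the offset, and with a normexp offset of 0 CUST_20078 ranged more widely, from 6.65 to 13.6. CUST_20077 ranged from 6.55 to 11.31, and no fold is given for it because it was not well above background in HT1, its lowest fish. The probes thus agreed on which fish were high. Their differences over 9 fish were 3.0 ± 0.86, 3.58 ± 1.02 and 3.66 ± 0.985 (standard error), with limma adjusted p-values of 0.166, 0.166 and 0.157. The spread of this sequence over the 10 fish was among the widest on the array: the SD of CUST_20078 was 2.64, the 20th highest of 24200 probes, against a median of 0.31 over all probes. Among HT2 to HT5 alone its SD was 0.55, rank 1587.

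**Figure D2:**
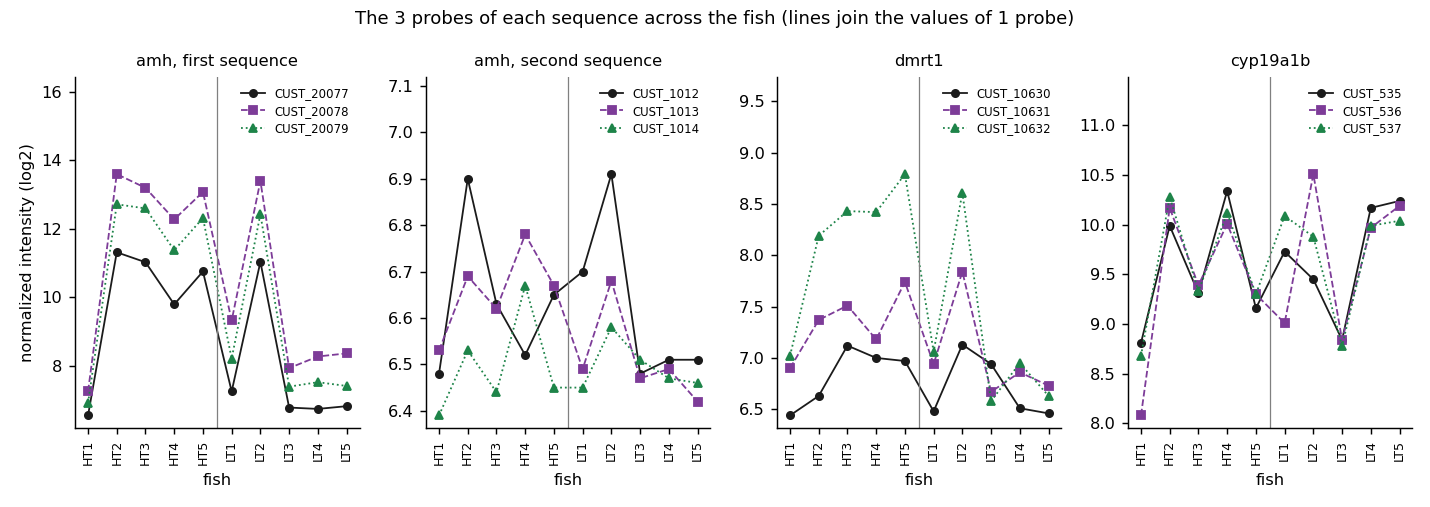
Normalized log2 intensity (vertical axis, a separate scale for each panel) of the 3 probes of each sequence in HT1 to HT5 and LT1 to LT5, left and right of the grey line. The probes of the first amh sequence follow each other closely, the 3 dmrt1 probes differ in the size of their range, and the 3 probes of the second amh sequence stay between 6.39 and 6.91.

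The second amh sequence gave little signal, close to the limit at which the scanner software calls a spot well above background. After quantile normalization no probe of it passed the threshold. CUST_1012 read 6.48, 6.90, 6.63, 6.52 and 6.65 in HT1 to HT5, against 6.70, 6.91, 6.48, 6.51 and 6.51 in LT1 to LT5. HT2 and LT2 were highest and the groups overlapped. It was well above background on 2 HT arrays (HT2 and HT3) and 1 LT array (LT2), CUST_1013 on 3 HT arrays and 1 LT array, and CUST_1014 on 1 HT array and no LT array, so that most of these values are imprecise. Over 9 fish CUST_1012 averaged 6.68 ± 0.16 in the HT group and 6.62 ± 0.18 in the LT group (SD, n = 4 and 5), a difference of 0.05 ± 0.12 (standard error; 95% interval -0.22 to 0.32; limma adjusted p = 0.845; exact permutation p = 0.643). CUST_1013 differed by 0.18 ± 0.08 (interval -0.003 to 0.37; limma adjusted p = 0.277), and for CUST_1014, well above background on no LT array, no fold is given. The spots of CUST_1012 read between 51 and 158 units over local backgrounds of 16 to 31.5 units. The size of its difference depended on the scaling. After normexp with scaling to the 75th percentile it was 0.753 (1.69-fold, limma adjusted p = 0.0640). With the scanner's processed signal it was 1.61 (3.04-fold, adjusted p = 0.150). The median of all probes was itself at 0.401 and 0.30 there. With the processed signal CUST_1013 (2.29, limma adjusted p = 0.0375) and CUST_1014 (1.78, adjusted p = 0.0394) passed the threshold, though rarely well above background.

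The dmrt1 sequence separated the same fish as the first amh sequence, over a smaller range. Its brightest probe, CUST_10632, read 7.02, 8.19, 8.43, 8.42 and 8.79 in HT1 to HT5, against 7.06, 8.61, 6.58, 6.95 and 6.63 in LT1 to LT5. HT2 to HT5 and LT2 were again the 5 high fish, the groups overlapped, and the gap of 1.12 between high and low fish exceeded the range of the low fish (0.48) and of the high fish (0.60). These 5 fish were above the largest gap under all of the same 7 ways of obtaining the values, and the gap exceeded both ranges in 5. LT3 and LT5 were not well above background, so their dmrt1 level may lie below the value given and the group difference may be larger than given. The mean was 8.46 ± 0.25 in the HT group and 7.17 ± 0.84 in the LT group over 9 fish (SD, n = 4 and 5). The difference of 1.29 ± 0.39 (95% interval 0.42 to 2.16), 2.45-fold, did not pass the threshold in limma (adjusted p = 0.169, unadjusted p = 0.00821), and the exact permutation test gave p = 0.0397. With all 10 fish it was 1.00 ± 0.44 (interval 0.03 to 1.98; limma adjusted p = 0.695; exact permutation p = 0.103), and without LT2 over 8 fish it was 1.65 with a limma adjusted p of 0.00169. With HT1 kept and LT2 left out it was 1.37 (limma adjusted p = 0.258). Over 9 fish the difference was larger with a normexp offset of 0, at 1.85 (3.6-fold; limma adjusted p = 0.134). With the scanner's processed signal it was 2.90 (7.45-fold; adjusted p = 0.0703).

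After quantile normalization the other dmrt1 probes showed less of this pattern. CUST_10631 had the same 5 highest fish, between 7.18 and 7.84, over lower values of 6.67 to 6.94, and differed between the groups by 0.44 ± 0.24 (9 fish; limma adjusted p = 0.350). CUST_10630, well above background on 3 HT and 2 LT arrays, shared 4 of the 5 highest fish with it, with LT3 in place of HT2, and differed by 0.23 ± 0.17 (limma adjusted p = 0.504). In LT3 the 2 spots of CUST_10630 read 70 and 132 units. HT5, among its 5 highest fish, was not well above background, and before normalization HT2 (mean of 103 units) lay above HT5 (67 units). The HT5 array was dimmer, with a median foreground of 95 units against 234.5 for HT2. The SD over the 10 fish was 0.29 in CUST_10630, 0.42 in CUST_10631 and 0.89 in CUST_10632, where the median of all probes was 0.31. With the mean of the 3 probes in place of the brightest, the difference of dmrt1 was 0.65. With the scanner's processed signal the difference was 2.33 for CUST_10630 (limma adjusted p = 0.0924) and 2.01 for CUST_10631 (adjusted p = 0.0957). It was 2.9 for CUST_10632 there, where the median of all probes was itself at 0.3. How far the 3 probes differed in size thus depended on the processing.

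The cyp19a1b sequence gave clear signal in every fish and no detectable difference between the groups. CUST_537 read 8.68, 10.28, 9.33, 10.12 and 9.30 in HT1 to HT5, against 10.09, 9.88, 8.78, 9.99 and 10.04 in LT1 to LT5. HT1 and LT3 were lowest, HT3 and HT5 came next, and the remaining 6 fish, 2 HT and 4 LT, lay within 0.40 of each other. Over 9 fish the mean was 9.76 ± 0.51 in the HT group and 9.75 ± 0.55 in the LT group (SD, n = 4 and 5), with a difference of 0.00 ± 0.32. The 95% interval was -0.72 to 0.72 (limma adjusted p = 0.999; exact permutation p = 0.984). With HT1 the difference was -0.21 ± 0.35 (interval -0.99 to 0.57; limma adjusted p = 0.979).

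The 3 cyp19a1b probes shared HT1 as a low fish, and LT3 was the next lowest in each. They disagreed on LT1 and LT2: CUST_536 read 9.01 in LT1 and 10.51 in LT2, while CUST_537 read 10.09 and 9.88. The difference between CUST_535 and CUST_536 ranged from -1.06 to 0.73 over the fish (SD 0.51), against an SD of 0.57 and 0.76 for the probes themselves. Single spots differed too: in HT1 the 2 spots of CUST_537 read 223 and 793 units, and in LT2 930 and 2038.5 units. The median difference between its 2 spots was 0.21 on the log2 scale over the 10 arrays.

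All 12 probes together were read against the whole array. Over 9 fish, 0 of the 12 and 0 of all 24200 probes (0.0%) were called by limma (reliable in all fish, changed by over 1.2-fold, adjusted p under 0.05), and the lowest adjusted p was 0.157 among the 12 and 0.0724 among all. Before adjustment 4 of the 12 probes, the 3 of the first amh sequence and CUST_10632 of dmrt1, were higher in the HT group at a p below 0.05, where 10.8% of all probes were higher and 7.61% lower at that level, and 0 of the 12 were lower. Over 10 fish 1 of the 12, CUST_10632, was higher and 0 were lower, against 4.12% higher and 2.96% lower of all probes. No member had every HT fish above every LT fish, which 3.85% of all probes did over 9 fish and 1.06% over 10 fish. The median difference of the 12 probes was 0.205 over 9 fish and 0.14 over 10 fish, and that of all probes was 0.00 and 0.01.

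**Figure D3:**
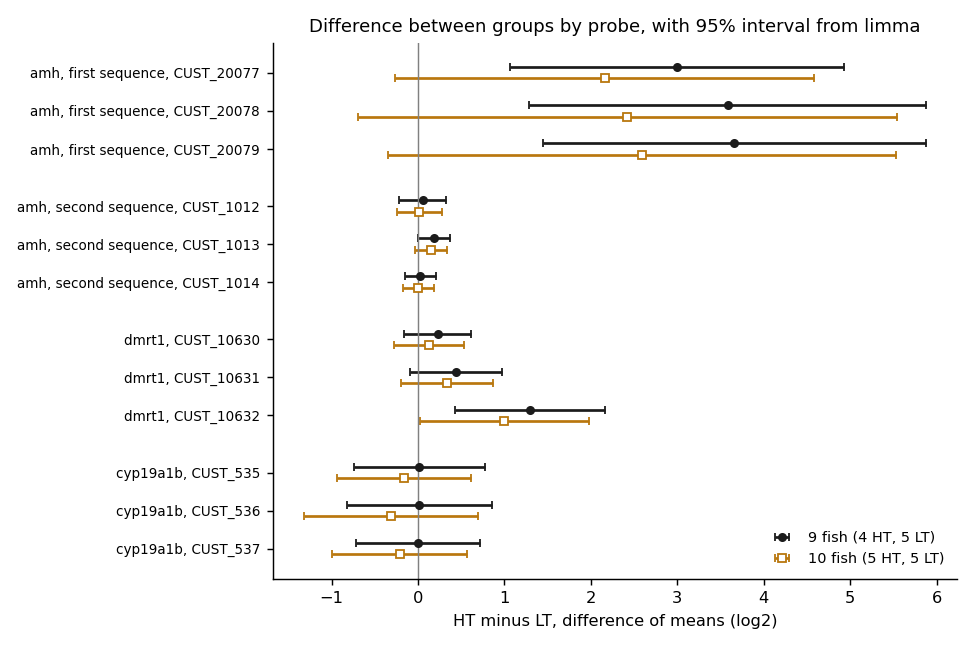
Difference of the group means, HT minus LT, in log2 units (horizontal axis) for each of the 12 probes, with its 95% interval from limma, over 9 fish (filled circles) and over 10 fish (open squares). The intervals of the 3 probes of the first amh sequence and of CUST_10632 (dmrt1) exclude 0 over 9 fish, before adjustment for the number of probes, and only that of CUST_10632 does over 10 fish.

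How the 3 genes varied together over the fish was compared by plotting one against another. For the first amh sequence and dmrt1 the same 5 fish, HT2 to HT5 and LT2, were high in both. Within the high fish the order differed after normalization: HT2 was highest in CUST_20078 and lowest of the 5 in CUST_10632, where HT5 was highest. Before normalization HT5 was the lowest of the 5 in CUST_10632, at a mean of 198 units over its 2 spots. Its array was also the dimmest, with a median foreground of 95 units, against 143 (HT4) to 234.5 (HT2) in the other high fish. Units before normalization therefore also carry the brightness of the array. HT2 was at 366, HT3 at 370, HT4 at 222.25 and LT2 at 528 units. This order in dmrt1 thus depended on the normalization. The 2 spots of LT2 alone differed by 0.599 on the log2 scale, where the 5 high fish ranged over 0.60. In the low fish LT1 was highest in both, and LT3 was second lowest in amh. In CUST_10632 of dmrt1 LT3 (6.58) and LT5 (6.63) were lowest, but neither was well above background. Before normalization LT5 (mean of 58.5 units) lay below LT3 (69.5 units) in this probe, on a dimmer array (median foreground 130 against 177 units). Since the fish fell into 2 separate sets of 5 on both genes, no pooled correlation is given for any of the 4 pairs planned (first amh sequence with second amh sequence, with dmrt1 and with cyp19a1b, and dmrt1 with cyp19a1b) and none was computed within a set of 5 fish. The order of cyp19a1b did not follow the 2 sets: among the 5 fish with high amh CUST_537 lay between 9.30 and 10.28, and among the 5 with low amh between 8.68 and 10.09. HT1 was the lowest fish in the brightest probes of both amh and cyp19a1b.

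**Figure D4:**
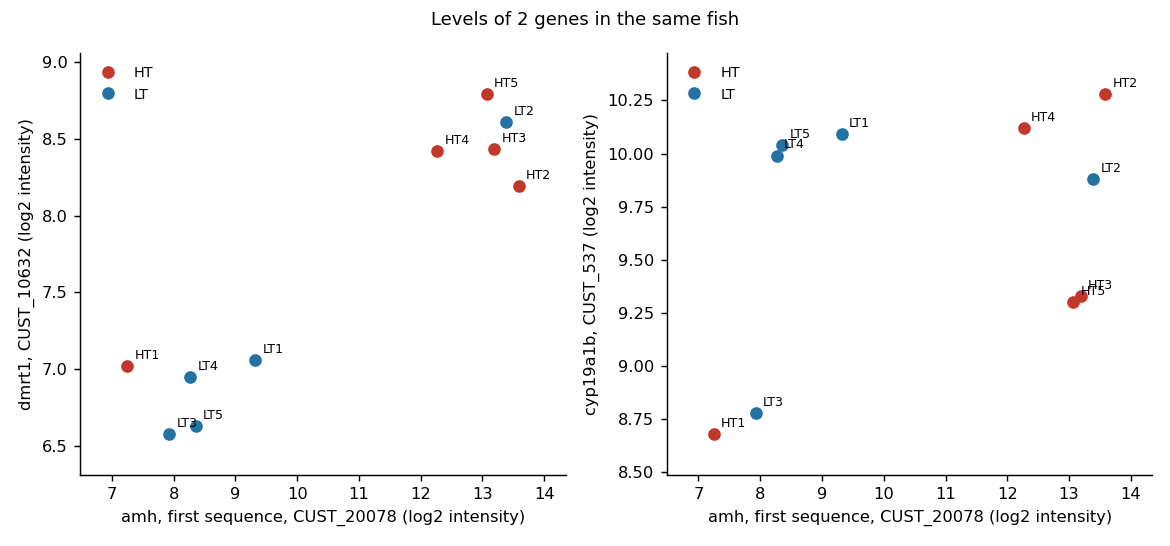
Normalized log2 intensity of CUST_20078 (first amh sequence, horizontal axes) against that of CUST_10632 (dmrt1, left panel) and of CUST_537 (cyp19a1b, right panel), 1 point per fish, HT in red and LT in blue. HT2 to HT5 and LT2 stand at the upper right of the left panel and apart from the other 5 fish, while the cyp19a1b values of the 2 sets overlap.

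Each slide held the HT and the LT fish of one replicate number, so the 2 fish of each slide were also compared with each other. For CUST_20078 the HT fish minus the LT fish was -2.07 on slide 1, 0.21 on slide 2 and 5.26, 4.0 and 4.71 on slides 3, 4 and 5. For CUST_10632 it was -0.04, -0.43, 1.85, 1.48 and 2.17 in the same order. In both genes the HT fish was clearly higher on slides 3 to 5, whereas slide 1 carried 2 low fish and slide 2 carried 2 high ones. For CUST_537 the differences were -1.41, 0.40, 0.55, 0.13 and -0.74. With the slide as a block over 9 fish the difference was 3.54 for the first amh sequence (limma adjusted p = 0.340), 1.27 for dmrt1 (adjusted p = 0.357) and 0.09 for cyp19a1b (adjusted p = 0.886). Without HT1, slide 1 held LT1 alone, so the block gave that fish no weight in the difference. With all 10 fish the block gave 2.42 for the first amh sequence (limma adjusted p = 0.679). It gave 1.0 for dmrt1 (adjusted p = 0.67) and -0.213 for cyp19a1b (adjusted p = 0.914).

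**Figure D5:**
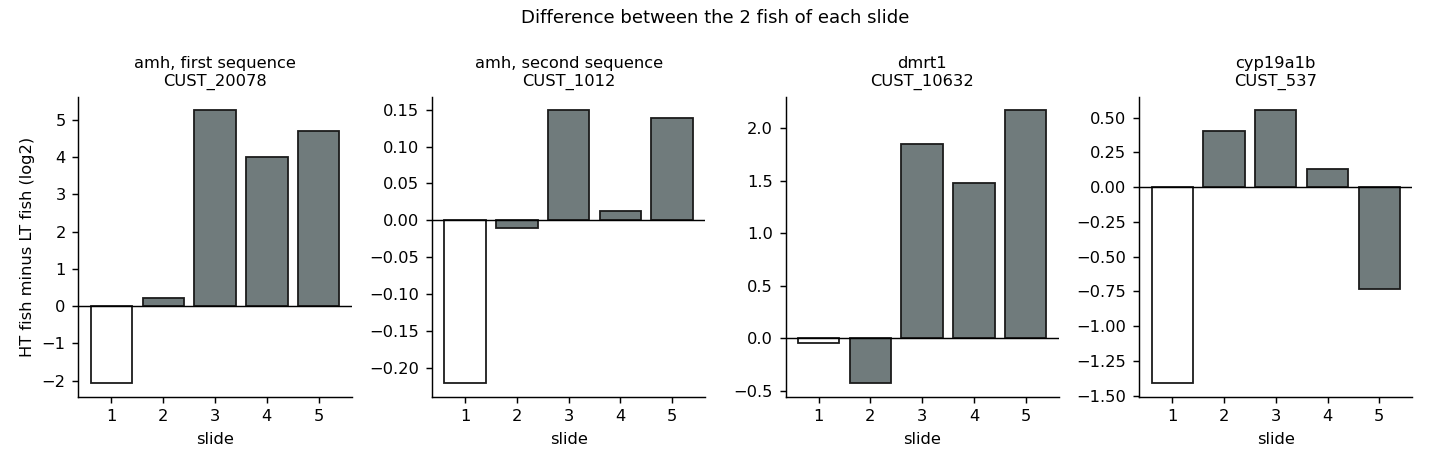
Normalized log2 intensity of the HT fish minus that of the LT fish on the same slide (vertical axis, a separate scale for each panel) for the brightest probe of each sequence on slides 1 to 5, with slide 1, which holds HT1, drawn without fill. The bars of the first amh sequence and of dmrt1 stand far above 0 on slides 3 to 5 only, and that of the first amh sequence lies below 0 on slide 1 (-2.07).

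The comparison set was 172 other sequences from the study's list of genes compared with earlier reports on temperature, not all named sequences. Among these 172, slow myosin heavy chain 3 varied most like the first amh sequence over the 10 fish (Pearson r = 0.95). It was followed by hsp47, a chaperone of collagen (0.92), and basic transcription factor 3-like 4 (0.88). The same myosin (0.95) and hsp47 (0.80) were most like dmrt1, followed by skeletal muscle myosin heavy chain (0.79). Least like both was betaine homocysteine S-methyltransferase, an enzyme of methionine metabolism (-0.89 with amh, -0.91 with dmrt1), followed by isocitrate dehydrogenase 1 for amh (-0.88) and elongation factor 1 alpha isoform 2 for dmrt1 (-0.84). The values for amh and dmrt1 describe 10 fish at 2 levels and mostly restate that separation; of all 24197 probes outside its own sequence, 1024 (4.23%) had the same 5 highest fish as CUST_20078. For cyp19a1b the most alike were sarcoglycan gamma (0.84), carboxypeptidase A1 (0.67) and a high density lipoprotein binding protein (0.65, but 0.37 over 9 fish without HT1), and the least alike microsomal glutathione S-transferase 2 (-0.80) and HMG-CoA reductase (-0.80). For CUST_1012 of the second amh sequence, well above background on 3 arrays, they were a mitochondrial creatine kinase (0.87), 40S ribosomal protein Sa (0.75) and an elastase-like serine protease (0.72) at the one end and isocitrate dehydrogenase 1 (-0.66) and calmodulin (-0.62) at the other. Isocitrate dehydrogenase 1 (6.56 to 6.97), skeletal muscle myosin heavy chain (6.45 to 7.0) and microsomal glutathione S-transferase 2 (6.5 to 7.16) read low over the 10 fish. These values lay near those of CUST_1012, so the r values of these sequences may be imprecise.

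Markers of other tissues were read in the same arrays. Slow myosin heavy chain 3 itself read 7.10, 9.21, 9.31, 8.72 and 9.04 in HT1 to HT5, against 6.79, 8.58, 6.52, 6.80 and 6.86 in LT1 to LT5, high in the same 5 fish as amh. Of 7 muscle sequences, 5 had a positive and 2 a negative HT minus LT difference over 9 fish, with 3 at an unadjusted p below 0.05 and 0 after adjustment in limma. The 3 were slow myosin heavy chain 3 (1.96) and skeletal muscle myosin heavy chain (0.319), higher in the HT group, and obscurin (-0.271), lower in it. Over 10 fish 4 differences were positive and 3 negative. Of all probes, 50.4% had a positive difference over 9 fish and 51.8% over 10 fish. At an unadjusted limma p below 0.05 over 9 fish, 10.8% of all probes were higher and 7.61% lower. The signs are those of the brightest probes. Over 9 fish cardiac myosin light chain-1 (-0.156 to 0.0966) and sarcoglycan gamma (-0.0981 to 0.0556) had probes of both signs. The summed intensity of the 7 muscle sequences, on the log2 scale, was 9.93 in HT1 and 10.4 to 10.8 in HT2 to HT5. It was 10.6 in LT2 and 9.88 to 10.2 in the other LT fish. It was thus highest in the 5 fish with high amh, as slow myosin itself was. Without slow myosin heavy chain 3 (left out after its values were seen) the sum of the other 6 was 9.71, 9.93, 9.90, 10.4 and 9.74 in HT1 to HT5, against 9.70, 10.2, 10.1, 9.90 and 9.74 in LT1 to LT5, and did not separate these 5 fish. Of 3 pancreas and gut sequences, 3 had a negative difference and 0 an unadjusted limma p below 0.05 over 9 fish, by their brightest probes. Over 10 fish 1 of them, carboxypeptidase A1, had such a p, where 4.12% of all probes were higher and 2.96% lower at that level. The 3 carboxypeptidase A1 probes differed by -0.355 to 0.228 over 9 fish and by -0.378 to 0.193 over 10 fish. The summed intensity of the 3 sequences was 8.68 to 9.43 in the HT fish and 8.99 to 10.2 in the LT fish, highest in LT2. Each of the 10 markers was well above background on at least 1 array. Obscurin was so on only 1 HT and 3 LT arrays, and skeletal muscle myosin heavy chain on 3 HT arrays and 1 LT array. The differences of these 2 are therefore imprecise. The part of the 10 markers in the amh and dmrt1 values was not tested.

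From the study's list of temperature-related genes, 5 other genes of sex differentiation were read, which are not all such genes on the array. Of these 5, 0 were called over 9 fish by limma, and 0 had an unadjusted p below 0.05. At that level 10.8% of all probes were higher in the HT group and 7.61% lower. For nr0b1b, a nuclear receptor, CUST_1203 differed by -0.01 ± 0.225, and for beta-catenin, a mediator of Wnt signalling, CUST_6508 differed by 0.03 ± 0.20. The transcription factor sox8 differed by 0.03 ± 0.16 (CUST_17178), and dmrt2b, a relative of dmrt1, by 0.04 ± 0.07 (CUST_12489), with dmrt2b well above background on 3 HT arrays and 1 LT array. Among these 5 genes the difference was largest for wisp1, a secreted protein of the Wnt pathway. Its probe CUST_13925 read 7.10, 7.27, 7.17, 7.49 and 7.03 in HT1 to HT5, against 7.66, 7.10, 7.97, 7.56 and 7.89 in LT1 to LT5. LT2 was the only LT fish among the HT values. The difference was -0.40 ± 0.18 over 9 fish (adjusted p = 0.280 in limma) and -0.42 ± 0.17 over 10 fish (adjusted p = 0.681). Over 10 fish wisp1 was the 1 gene of the 5 with an unadjusted limma p below 0.05 (0.0307). At that level 4.12% of all probes were higher and 2.96% lower over 10 fish. Over 9 fish the 3 wisp1 probes differed by -0.69 to -0.40.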

How the data were processed

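RNA of gonads from 5 HT and 5 LT fish was measured; groups and replicate numbers came from the sample labels. For every array the authors deposited the scanner's spot intensity values (Feature Extraction 10.7.3.1, array design 024502, per the file headers) and a table of normalized log2 values with 21701 probes, used as an alternative. From 43803 spots per array, median foreground and background intensities were corrected with normexp (offset 50; limma 3.58.1, R 4.3.3), control spots were left out, arrays were quantile normalized, and the spots of each probe were averaged, leaving out any that carried an outlier flag. HT1 was taken as the fish left out by the study, whose heat map shows the other 9. Groups were compared with lmFit and eBayes, adjusted by Benjamini-Hochberg over 24200 probes. A spot was reliable at a foreground of 2 times its background, unsaturated and unflagged. Single probes were also compared by exact permutation.

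The likeness rule took the 3 highest and 2 lowest r over 10 fish among sequences of the study's list of temperature-related genes. This rule, the 12 probe IDs, the 5 other sex genes and the marker lists were chosen with earlier results of these data known. Each sequence was represented by its brightest probe. Arrays of a replicate number shared a slide, per the file headers; deviations of slide mates from their group means correlated at 0.374, 0.488, 0.0802, -0.233 and 0.188. Alternatives were a normexp offset of 0, scaling by the 75th percentile with normexp or the scanner's processed signal, cyclic loess, the deposited log2 table, flagged spots kept, the slide as a replicate block, each fish left out, trended robust variances, array weights and the mean of a sequence's probes. Leaving each fish out of the 10 was added after seeing the data. Probe sequences were not used here, and 0 of the array's sequence identifiers matched the RefSeq gene table. The number of arrays limits the precision. Figures were drawn with matplotlib 3.10.9.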

Additional observations from a re-analysis of the deposited data

Results flagged for a closer look

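Single fish stood far from the other fish of their group in 9 of the 36 sets of values tested (12 probes in 5 HT fish, in HT2 to HT5 and in 5 LT fish), judged by the gap to the nearest fish over the range of the group. Chance flags about 1 group in 20 (normally distributed values). On these arrays such a fish was found for 19.8% of all probes in the 5 HT fish, 8.48% in HT2 to HT5 and 7.75% in the LT fish. The shares differ by group, so the pooled 9 of 36 cannot be set against any 1 of them. Among the 12 probes the 5 HT fish were flagged only in CUST_20078 and CUST_20079, no more often than over all probes. In HT2 to HT5 none was flagged, and the other flags were in the LT fish. For the first amh sequence HT1 was the low fish, at 7.25 in CUST_20078 (nearest HT fish 12.27) and 6.91 in CUST_20079 (nearest 11.37). LT2 was the high fish of its group in the same sequence, at 11.03 in CUST_20077 (nearest LT fish 7.25), 13.39 in CUST_20078 (nearest 9.32) and 12.42 in CUST_20079 (nearest 8.21). It was also high in CUST_1013 of the second amh sequence (6.68, nearest 6.49) and in the dmrt1 probes CUST_10631 (7.84, nearest 6.94) and CUST_10632 (8.61, nearest 7.06). For cyp19a1b LT3 was the low fish, at 8.78 in CUST_537 (nearest 9.88).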

How the results depend on the processing

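Over the 12 probes and all alternatives, 212 of 277 differences kept their direction and stayed on the same side of the threshold, 17 passed it and 48 changed sign. The sign changes were in probes of cyp19a1b and the second amh sequence whose difference over 9 fish was near 0. The changed values reached -0.457, in CUST_537 over the 10 fish without LT3, and none was called. No member was lost from a call, since none was called over the 9 fish. Scaling by the 75th percentile moved the median log2 difference of all probes to 0.401 after normexp and to 0.30 with the processed signal, against 0.00 with quantile normalization, and called 1747 probes (1633 higher and 114 lower in the HT group) and 2445 probes (2366 and 79) in place of 0. Array weights over all 10 fish called 2029 (1377 and 652). With one fish left out the count ranged from 0 to 710 (480 and 230), the highest without LT2, and was 66 (9 and 57) without LT2 and with HT1 kept. Under the replicate block it was 0, as without it, for 9 and for 10 fish. The deviations of slide mates from their group means correlated at -0.233 on slide 4, at 0.0802 on slide 3 and at up to 0.488, on slide 2.

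For the first amh sequence the difference passed the threshold after normexp with 75th percentile scaling (3.52, or 3.12 above the median of all probes, adjusted p = 0.0436 in limma) and with array weights over 10 fish (3.7, adjusted p = 0.0314), and ranged from 1.99 to 4.56 with single fish left out, the highest without LT2, where it passed as well (adjusted p = 0.000635). Over its other alternatives it did not pass. Its probes CUST_20077 and CUST_20079 passed under these settings too, and also with the processed signal, under which CUST_1013 and CUST_1014, rarely well above background, did so as well. For dmrt1 these values were 1.55 (1.15 above the median, adjusted p = 0.0408), 1.23 (adjusted p = 0.0387) and 0.849 to 1.65, the highest again without LT2 and past the threshold, as CUST_10631 was there. With a normexp offset of 0 dmrt1 was at 1.85 (3.6-fold) and with the processed signal at 2.9 (7.45-fold, 2.6 above the median), both short of the threshold. The replicate block gave 3.54 for amh and 1.27 for dmrt1, and changed no call.

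The brightest probe of the second amh sequence ranged from -0.0521 to 0.126 with fish left out, and was at 0.753 (0.352 above the median of all probes) after normexp with 75th percentile scaling and 1.61 (1.31 above it) with the processed signal, short of the threshold in both (limma adjusted p = 0.064 and 0.15). CUST_1014 was at -0.00714 with cyclic loess, at -0.00012 over 10 fish with and without the replicate block, at -0.0175 with array weights, and between -0.0241 and 0.0535 with fish left out. CUST_537 of cyp19a1b was at -0.0861 with the processed signal, -0.0624 with 75th percentile scaling after normexp, -0.00604 with cyclic loess, -0.213 over 10 fish with and without the block, -0.244 with array weights, and between -0.457 and 0.154 with fish left out. In the same order CUST_535 was at -0.00342, -0.0473, unchanged in sign with loess, -0.163, -0.231, and between -0.198 and 0.195. CUST_536 was at -0.0175, -0.0507, -0.00626, -0.313, -0.0827, and between -0.202 and 0.216, and at -0.159 with the block over 9 fish. The cause of these shifts was not tested. The 4 planned correlations and their alternatives were not run, since the fish fell into 2 separate sets. CUST_1013, CUST_1014 and CUST_10630 had no value in the deposited log2 table. Signal close to background limits CUST_20077 in HT1, dmrt1 in LT3 and LT5, and the second amh sequence.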
